A study of Mus musculus with 19 samples.

Results

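The transcripts described here are 34 genes listed as transcripts of the endothelial cells lining the liver sinusoids. They were followed through the culture of hepatic stellate cells (HSCs), the vitamin A storing cells that lie beneath this endothelium. Some are shared with other vessels, macrophages or activated HSCs. All 34 were matched by symbol in a table of 55487 genes, each to 1 row. The genes were chosen by name, with earlier results of these data known, as VEGF and angiopoietin receptors, scavenger receptors, junction proteins, transcription factors and secreted factors. HSCs were sorted by the ultraviolet fluorescence of their vitamin A from the livers of healthy male Balb/c mice aged 23 to 24 weeks, with no genetic change or injury named for any group. One fraction was collected at once (0 h, 2 samples) and the rest was sorted onto collagen-coated plates in Dulbecco's modified Eagle's medium with 10% fetal bovine serum, renewed after 3 h and 24 h. Cultures were collected after 3, 6, 12, 18 and 96 h (3 samples each) and after 24 h (2 samples). The labels number each sample from M1 to M3, here isolations 1 to 3, without saying what the letter stands for: the 0 h samples come from isolations 2 and 3, the 24 h samples from isolations 1 and 2, and every other time has all 3. Isolations 1 and 3 carry one isolation date and isolation 2 another. Each sample stands for 2 technical repeats that the counts do not separate. The gate was set for HSCs and no endothelial cell was sorted on its own, so that the samples model endothelial cells only as far as some came through the gate.

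Sinusoidal endothelial cells are fenestrated and lie on hardly any basement membrane. They clear waste molecules from the blood through a set of endocytic receptors, the stabilins, the mannose receptor and Fc receptors among them, and they send signals such as Bmp2 and Wnt2 to hepatocytes. Their upkeep depends on VEGF, angiopoietin and BMP signals from neighbouring cells, HSCs among these, and in culture they are known to lose their fenestrae and endocytic receptors early. General endothelial genes such as Cdh5 and Pecam1 are shared with the endothelium of other vessels.

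The ETS core motif GGAA, which Erg and its relatives bind, was searched in the 250 bases before the RefSeq start (GRCm38.p6) of those members that have an entry, 20 of the 34 with 24 starts between them. Below are the windows of 4 members whose courses are described further on. Stab1 and Clec4g are scavenger receptors with their highest mean at 3 h, though Stab1 was lower at 3 h than at 0 h in isolation 2. Cldn5 is a junction gene whose highest mean, at 18 h, was set by isolation 1. In isolations 2 and 3 its level was highest at 0 h. Eng is a co-receptor whose level came back at 96 h. Each window is read 5′ to 3′ on the strand of its gene, and capitals mark GGAA or its reverse complement TTCC.
Stab1, chr14:31168642-31168891, minus strand: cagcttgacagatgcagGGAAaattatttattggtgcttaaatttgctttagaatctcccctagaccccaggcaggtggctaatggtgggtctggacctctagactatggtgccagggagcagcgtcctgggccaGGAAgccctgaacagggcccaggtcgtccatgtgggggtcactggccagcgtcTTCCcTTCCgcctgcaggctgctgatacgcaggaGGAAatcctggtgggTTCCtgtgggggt
Clec4g, chr8:3720652-3720901, minus strand: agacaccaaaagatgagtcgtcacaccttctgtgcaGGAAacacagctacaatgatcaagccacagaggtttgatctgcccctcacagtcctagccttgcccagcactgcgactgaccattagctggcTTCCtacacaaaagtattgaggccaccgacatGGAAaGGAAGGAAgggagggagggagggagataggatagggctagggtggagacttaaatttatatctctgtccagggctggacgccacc
Cldn5, chr16:18776597-18776846, plus strand: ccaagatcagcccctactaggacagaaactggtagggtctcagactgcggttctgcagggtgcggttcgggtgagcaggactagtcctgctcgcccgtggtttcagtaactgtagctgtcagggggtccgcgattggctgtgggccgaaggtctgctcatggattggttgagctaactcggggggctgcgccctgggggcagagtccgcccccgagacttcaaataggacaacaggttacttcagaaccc
Eng, chr2:32646345-32646594, plus strand: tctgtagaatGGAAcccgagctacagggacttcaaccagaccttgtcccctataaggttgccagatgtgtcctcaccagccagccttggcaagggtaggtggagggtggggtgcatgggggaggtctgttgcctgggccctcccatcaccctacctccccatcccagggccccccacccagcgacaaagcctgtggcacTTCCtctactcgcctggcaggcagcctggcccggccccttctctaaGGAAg
The motif was found on one of the strands 6 times before Stab1, 5 times before Clec4g, 0 times before Cldn5 and 3 times before Eng. It lay in 22 of the 24 member windows and in 93.4% of all 32851 windows of this length. The longer ETS motif CCGGAA, which contains GGAA, was found before 2 members, Kdr and Adgrl4, against 12.0% of all windows. The SOX motif AACAAT was found before 3 members, Tek, Emcn and Erg (9.42% of all windows), and the GATA motif AGATAA before 1, Erg (9.99%). These are matches of letters on both strands and not binding sites.

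The endothelial transcripts were present in freshly sorted HSCs and at 3 h, and their summed level was lower at every later time. By 12 h the scavenger receptors and VEGF receptors were at a small part of their 3 h level. The junction group and the secreted and signalling group were in sum at a larger part. Levels are given as CPM, the counts divided by the TMM-scaled library total, in the order of isolations 1, 2 and 3, and at 0 h of isolations 2 and 3. Together the 34 transcripts came to 2787 and 2055 CPM at 0 h, 6742, 3331 and 2932 CPM at 3 h and 2731, 1503 and 1272 CPM at 6 h. At 12 h the sum was 2026, 848 and 956 CPM and at 18 h 1556, 577 and 602 CPM. It was 1475 and 645 CPM at 24 h (isolations 1 and 2) and 986, 521 and 501 CPM at 96 h. Relative to 3 h in the same isolation, 30, 25.5 and 32.6% remained at 12 h and 14.6, 15.6 and 17.1% at 96 h. Eng, which activated HSCs are also known to express, alone made up 36.0, 67.9 and 57.5% of the sum at 96 h. Without Bmp2, Eng and Ramp2, a choice made after their values were seen, 539.7, 116 and 129 CPM was left at 96 h, with 29.9, 17.7 and 30.2% of the 3 h level at 12 h and 9.82, 4.92 and 6.74% at 96 h, so that the shares were lower and lay less close together. In bulk samples, fewer endothelial cells and less of a transcript per cell cannot be told apart. Of the 34, 33 had a count in at least 1 sample, 26 to 28 had a count in the 0 h samples and 11 to 25 in the 96 h samples. Vwf, the clotting protein of larger vessels, had 0 counts in all 19 samples. The highest mean lay at 3 h for 20 members, at 0 h for 6, at 6 h for 2, at 12 h for 2 and at 18 h for 3. The 0 h means hold no sample of isolation 1, which was the highest at 3 h for 30 of 32 members with a count. These peak times therefore compare unlike sets of isolations.

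**Figure D1:**
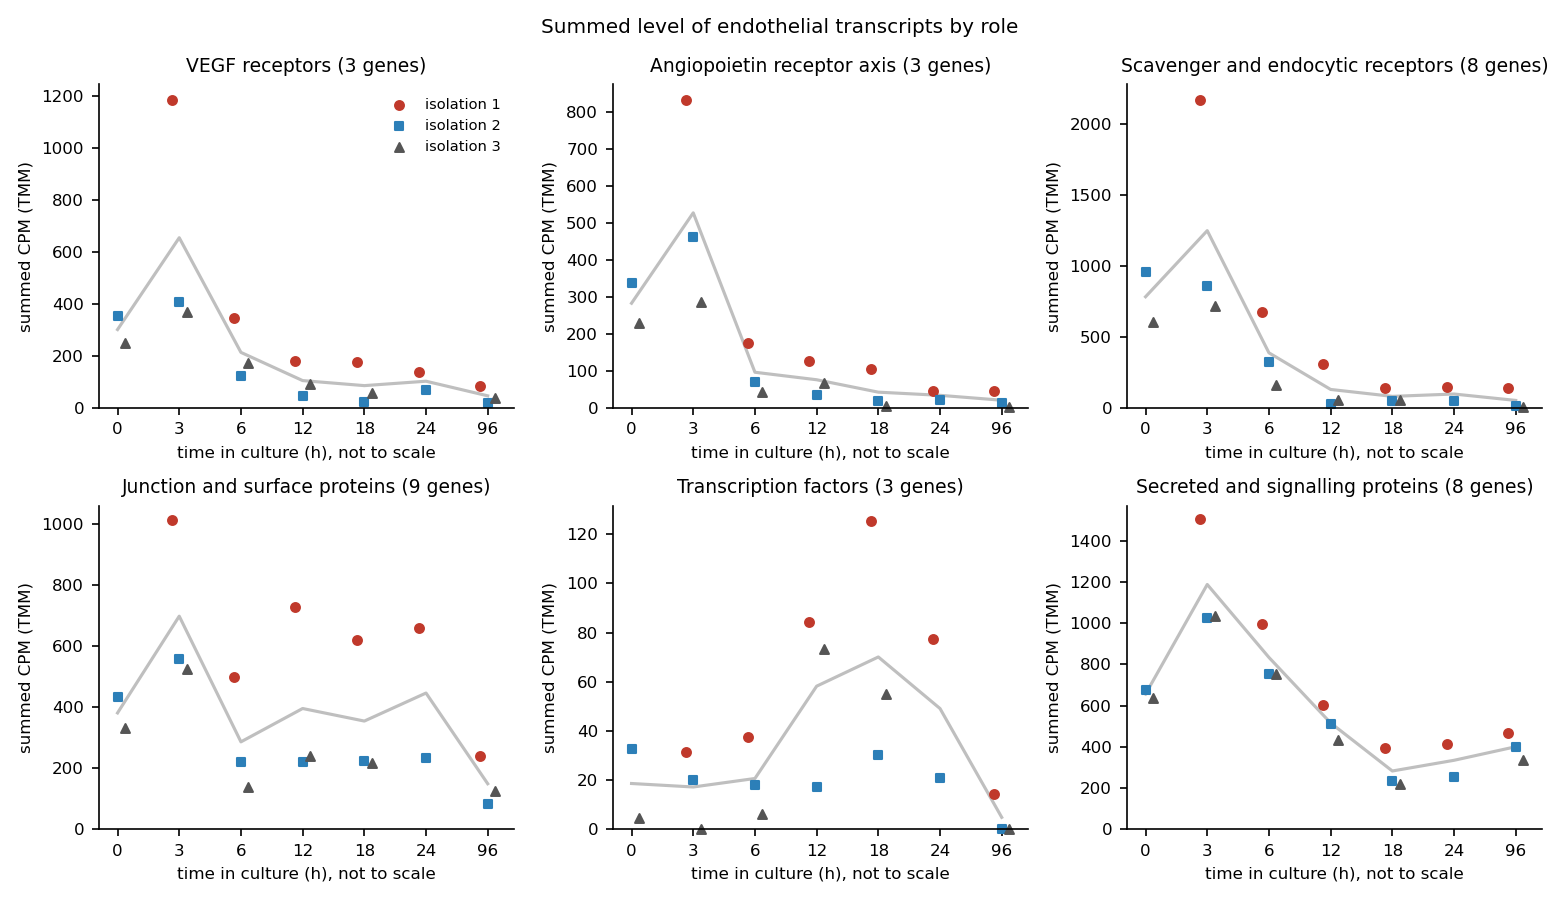
Summed CPM (TMM-scaled) of the endothelial transcripts in 6 roles, for each sample (points, shaped and coloured by isolation) and as the mean per time (grey line), with the times evenly spaced. The scavenger and VEGF receptors are low from 12 h on, junction proteins stay near or above their 6 h level until 24 h, and isolation 1 (circles) lies above the others at all 6 times in culture in all panels.

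The courses parted by role. For the 8 scavenger and endocytic receptors 14.1, 2.66 and 7.60% of the summed 3 h level was left at 12 h, for the 3 VEGF receptors 15, 10.7 and 24.5% and for the 3 genes of the angiopoietin receptor axis 15.3, 7.23 and 22.9%. For the 9 junction and surface proteins 71.9, 39.3 and 45.6% was left, which in each isolation was a larger share than for any of those 3 groups. This difference between roles is a description of the sums and was not tested. At 96 h the shares were 6.32, 1.16 and 0.612% for the scavenger receptors, 7.06, 4.11 and 9.58% for the VEGF receptors and 23.6, 14.9 and 23.6% for the junction proteins. The secreted and signalling group, which holds Eng, had 30.9, 39.0 and 32.4% left at 96 h. The HSC markers of the same samples, 16 genes such as Dcn and Lrat, had 16.8, 17.6 and 17.5% of their summed 3 h level left at 12 h.

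The labelled cell type was HSC, and its markers were abundant at 0 h, with a sum of 39503 and 34142 CPM over 16 genes, and at 3 h, with 34483, 37861 and 39297 CPM. The 12 Kupffer cell and macrophage markers came to 482 to 578 CPM at 0 h, 299.6 to 532 CPM at 3 h and 37.7 to 53.1 CPM at 6 h. Of these, 11 had a count in at least 1 sample at 0 h and 10 in each, and Marco was at 0 in all 19 samples. Clec4f, the defining marker of Kupffer cells, was at 62.7 and 61.3 CPM at 0 h, 104, 37.9 and 36.6 at 3 h and 0 in all 3 samples at 6 h. The 10 hepatocyte markers came to 4445 to 8726 CPM at 0 h, 559.9 to 1598 CPM at 3 h and 51.5 to 137 CPM at 96 h, and the 8 lymphocyte markers to 0 CPM at 0 h and at most 29.2 CPM at any time. The macrophage markers thus moved in the direction of the members Stab1, Mrc1 and Fcgr2b, which macrophages also express, and their part in the results for these 3 was not tested. Without these 3 members the mean summed level was within 1 SD of the full sum at all 7 times. That SD is the wide spread between samples of a time, so this does not show what part macrophages had.

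Samples of a time were compared in one edgeR fit of all 19 samples by the quasi-likelihood F test. A call required a change of more than 2-fold with an adjusted p (Benjamini-Hochberg over 15138 genes) under 0.1. Of the members, 31 passed the filter on low counts and were tested, and Sox18, Nos3 and Vwf did not pass. The spread between replicates was wide, with a biological coefficient of variation of 1.06 over all genes. Members of one time often differed between a count of 0 and a high count: in 45 of 196 combinations of a member and a time with any count, 1 sample had no count beside another with at least 50. The median total was 4954915 counts per sample. Library totals lay between 2073171 (0 h, isolation 3) and 7690892 (12 h, isolation 3), so that 3 counts, the floor used for samples at 0, corresponded to 0.386 to 1.51 CPM. Floors cover counting error only, since the reads carry no stated molecular identifiers. The methods of the study call the samples of a time independent repeats. Whether each came from other animals is not stated, and p-values measure the spread between these samples. Samples of one number share an isolation date, and the fit with that number as a block is given beside a result where it changes the call.

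**Figure D2:**
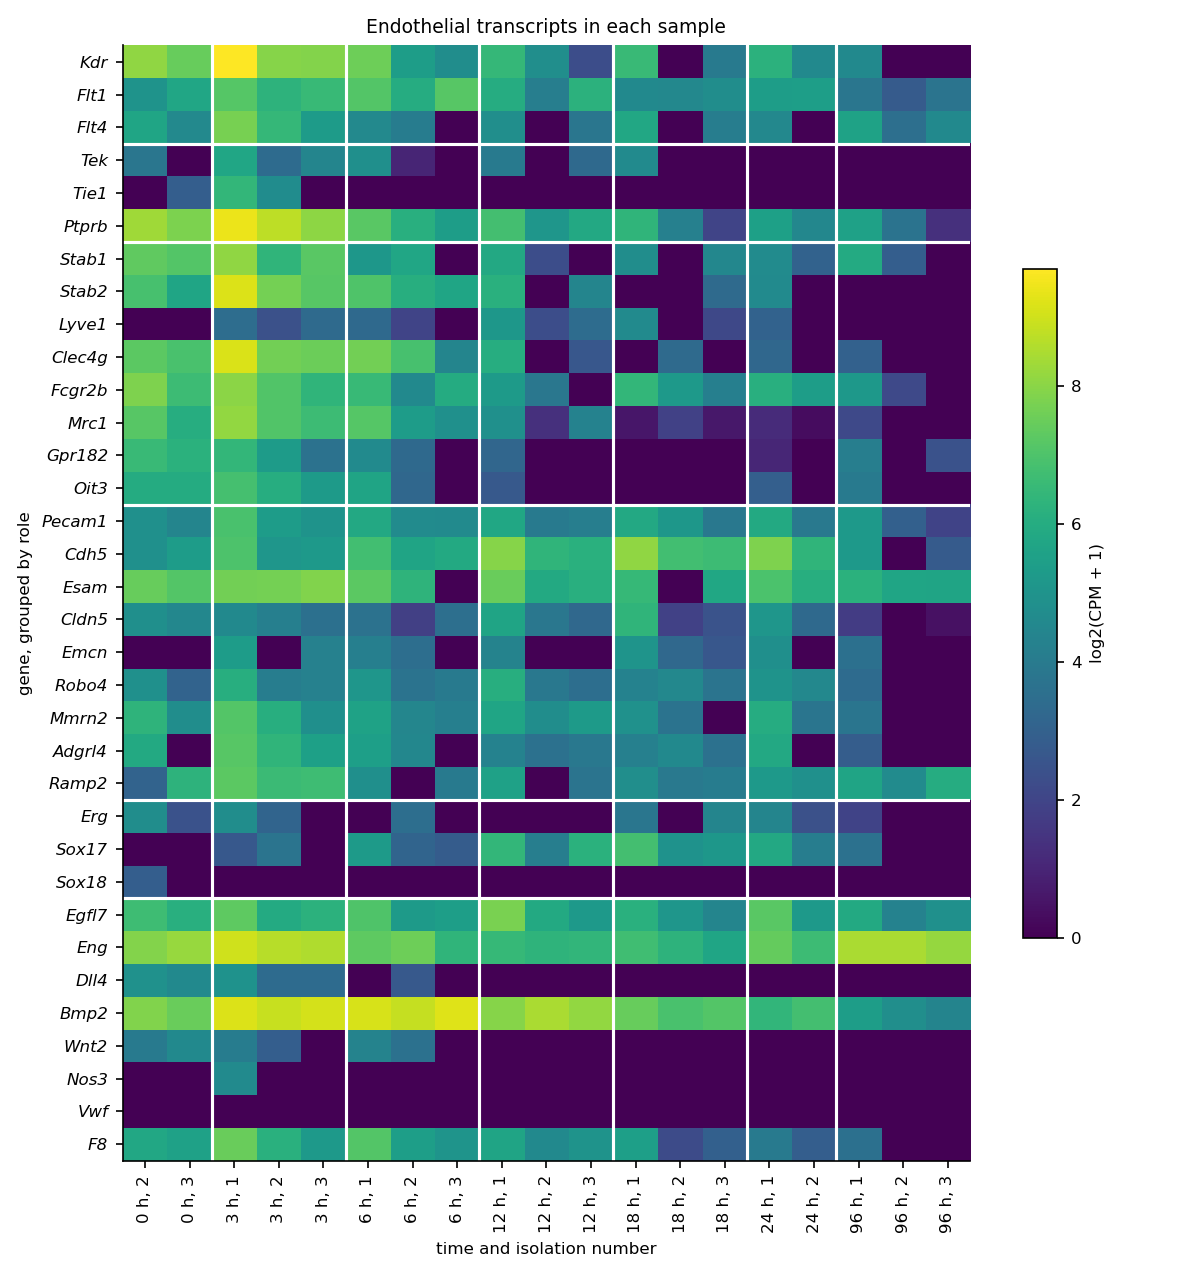
Level of each of the 34 transcripts, as log2(CPM + 1), in the 19 samples, with columns ordered by time and isolation number and rows grouped by role. Most rows are brightest at 3 h in isolation 1, most scavenger receptors are darker from 12 h on, and Eng is bright again at 96 h.

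At 3 h against 0 h, 1 of 31 tested members was called higher (4.19% of all genes were) and 0 were called lower (1.39% of all genes). At an unadjusted p below 0.05, 4 were higher and 0 lower by edgeR, and DESeq2 called 2 higher and 0 lower. For the members, here and below, no share of all genes is given for the unadjusted p or DESeq2. Fitted changes were upward for 25 of 31, and their median log2 fold change was 0.91 against 0 over all genes. Isolation 1, which has no 0 h sample here, held the highest 3 h level for most members, and within isolations 2 and 3 the median difference from 0 h to 3 h over the 34 members was 0.03 and 0.18 on the log2(CPM + 1) scale. In isolation 2, 17 members were higher and 14 lower at 3 h than at 0 h, and in isolation 3, 20 were higher and 10 lower. The samples at 3 h all lay above those at 0 h for 9 members, Flt1, Stab2, Lyve1, Clec4g, Pecam1, Esam, Ramp2, Eng and Bmp2, as for 17.1% of all genes.

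From 12 h on most calls were of lower levels, though at 12 h without the block the share of members called lower was near that of all genes. At 6 h against 0 h, 1 member was called higher (6.98% of all genes) and 0 lower (4.35%). At an unadjusted p below 0.05, 1 was lower by edgeR, and DESeq2 called 1 lower. With the replicate block on isolation number 3 were lower (4.24% of all genes). At 12 h, 1 was called higher (8.6% of all genes) and 3 lower (9.1%), and the block called 9 lower (8.36%). At 18 h, 1 was higher (7.64%) and 7 lower (8.21%). There the block added Kdr, Clec4g, Egfl7 and F8 and dropped Dll4, and it called 7.25% of all genes lower. At 24 h, 1 was higher (5.65%) and 2 lower (3.86%), where the block called 0 higher (5.33%) and 7 lower (3.52%). At 96 h, 0 of 31 were higher (5.83% of all genes), also at an unadjusted p below 0.05, and DESeq2 called 1 higher. There were 7 lower (5.03%), against 16 with the block (4.53%). The number at 96 h went from 7 to 13 without the 96 h sample of isolation 1 and to 2 without that of isolation 2. The median log2 fold change of the members was -1.10 at 12 h, -1.49 at 18 h and -3.68 at 96 h, against 0, 0 and 0.07 over all genes. For members with no count in a group the fitted value depends on the prior count, and with these 7 at their bound the median at 96 h was -2.92.

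Within the culture, 12 h against 3 h gave 0 members called higher (6.46% of all genes), also at an unadjusted p below 0.05 and by DESeq2. There were 4 lower (7.9%), against 8 with the block (7.28%). The median member changed by -2.59 on the log2 scale. At 96 h against 12 h, 1 was called higher (6.96%) and 7 lower (6.57%), against 13 with the block (6.22%). All samples at 12 h lay below all at 3 h for 17 of the 34 members (18.7% of all genes), and all at 96 h below all at 3 h for 22 (18.1%). Within each of the 3 isolations, 20 members were lower at 12 h than at 3 h and 26 were lower at 96 h than at 3 h. These within-isolation numbers have no share of all genes beside them and describe the members only. In all, 14 members were called in at least 1 comparison, or 22 with the block, these 14 among them. No share of all genes over the 8 comparisons is given, so these totals do not show whether members were called more often than other genes.

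Kdr, the main signalling receptor for Vegfa, lay at 271 and 173 CPM at 0 h, 836, 243 and 237 at 3 h and 186, 41.0 and 25.8 at 6 h. Later it was at 87.3, 26.97 and 3.87 CPM at 12 h, 95.8, 0 and 14.9 at 18 h, 73.6 and 23.3 at 24 h and 23.5, 0 and 0 at 96 h. All 12 h samples lay below all 3 h samples. Isolation 2 had no count at 18 h and isolations 2 and 3 none at 96 h, but the changes did not pass the test (log2 fold change -3.48 ± 1.71 SE, adjusted p = 0.211 for 12 h against 3 h). With the block Kdr was called lower at 12 h (adjusted p = 0.0537), at 18 h (adjusted p = 0.0445) and at 96 h (adjusted p = 0.00707) against 0 h, and at 12 h against 3 h (adjusted p = 0.0584). Flt1, a high-affinity VEGF receptor that also acts as a decoy, was at 30.8 and 52.2 CPM at 0 h, 140.3, 76.5 and 93.2 at 3 h and 136, 63.8 and 146 at 6 h. It stood at 63.7, 16.6 and 73.8 CPM at 12 h, 23.2, 22.3 and 26.1 at 18 h, 41.0 and 42.9 at 24 h and 12.9, 5.97 and 12.3 at 96 h. It was lower at 96 h than at 0 h (log2 fold change -1.995 ± 0.55 SE, adjusted p = 0.0313, call lost in 4 of 28 alternatives) and than at 12 h (log2 fold change -2.31 ± 0.52 SE, adjusted p = 0.00744), and with the block at 12 h than at 3 h (adjusted p = 0.0851). Unlike Kdr it had a count in all 19 samples, and isolation 1 was the highest at only 2 of 6 times. Flt4, the receptor for Vegfc and Vegfd, was at 50.6 and 22.6 CPM at 0 h, 209, 88.0 and 38.8 at 3 h and 22.5, 15.9 and 0 at 6 h. Later values were 26.6, 0 and 12.9 CPM at 12 h, 55.1, 0 and 16.4 at 18 h, 22.3 and 0 at 24 h and 47.3, 10.8 and 23.1 at 96 h. It was not called at any time and was still counted in all 96 h samples.

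Ptprb, a phosphatase that holds down Tek and VE-cadherin signalling, was at 323 and 222 CPM at 0 h and 695, 427 and 267 at 3 h. It then lay at 147, 69.4 and 41.5 CPM at 6 h, 112, 33.4 and 56.6 at 12 h, 80.7, 17.5 and 2.98 at 18 h, 45.1 and 21.3 at 24 h and 46.2, 12.1 and 1.52 at 96 h. Levels were lower at 18 h (log2 fold change -3.02 ± 1.11 SE, adjusted p = 0.0913) and 96 h (log2 fold change -3.79 ± 1.14 SE, adjusted p = 0.0498) than at 0 h and at 12 h than at 3 h (log2 fold change -2.78 ± 1.04 SE, adjusted p = 0.0994). These calls were lost in 12 of 28 alternatives, 3 of 28 alternatives and 18 of 28 alternatives. With the block it was called lower at all times from 6 h on (adjusted p = 0.0375 at 6 h, adjusted p = 0.0199 at 12 h and adjusted p = 0.00686 at 24 h) and at 96 h against 12 h (adjusted p = 0.0307). Tek, the angiopoietin receptor, was at 13.04 and 0 CPM at 0 h, 53.1, 9.59 and 20.5 at 3 h and 27.9, 0.994 and 0 at 6 h. It was at 14.8, 0 and 9.07 CPM at 12 h and 24.1, 0 and 0 at 18 h and at 0 in all samples at 24 h and 96 h. With counts in 1 of 2 samples at 0 h, no fold against 0 h is given. Tie1, the partner receptor of Tek, had counts only in 3 samples, with 0 and 6.53 CPM at 0 h and 85.3, 25.6 and 0 at 3 h and 0 from 6 h on. At 12 h it was at least 53.2-fold lower than at 3 h against a floor of 3 counts per library, or at least 18.5-fold lower without the 3 h sample of isolation 1. Neither was called in any comparison.

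Of the summed 3 h level of the scavenger receptors, 6.29, 5.70 and 7.26% was left at 18 h. Stab2, the receptor through which sinusoidal endothelium clears hyaluronan, was at 116 and 50.7 CPM at 0 h, 589, 204 and 143 at 3 h and 131, 67.2 and 51.3 at 6 h. Thereafter it lay at 70.9, 0 and 20.5 CPM at 12 h, 0, 0 and 9.12 at 18 h, 23.8 and 0 at 24 h and 0 in all 3 samples at 96 h. At 96 h it was at least 96.7-fold lower than at 0 h (edgeR's quasi-likelihood test, adjusted p = 0.0371) and at least 35.4-fold lower than at 12 h (adjusted p = 0.0561). Without the 0 h sample of isolation 2 the first bound was 58.9-fold, and without the 12 h sample of isolation 1 the second was 11.9-fold. These calls were lost in 3 of 28 alternatives and 6 of 27 alternatives. Clec4g, a lectin typical of this endothelium, went from 152 and 119.5 CPM at 0 h and 568, 199.9 and 185 at 3 h to 197, 117 and 20.6 CPM at 6 h and 64.4, 0 and 5.20 at 12 h. After that it was at 0, 9.12 and 0 CPM at 18 h, 8.58 and 0 at 24 h and 7.17, 0 and 0 at 96 h. Clec4g was not called in the fit without a block (log2 fold change -5.96 ± 2.23 SE, adjusted p = 0.124 at 96 h). With the block it was called lower at 18 h (adjusted p = 0.0629), 24 h (adjusted p = 0.0966) and 96 h (adjusted p = 0.0322) and at 12 h against 3 h (adjusted p = 0.0996). The 3 h and 12 h samples of both genes did not overlap.

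Mrc1, the mannose receptor, which takes up collagen fragments and is also made by macrophages, was at 146 and 64.8 CPM at 0 h, 277, 134 and 100.2 at 3 h and 140.0, 40.4 and 28.5 at 6 h. It was at 28.03, 1.53 and 18.8 CPM at 12 h, 0.487, 2.63 and 0.559 at 18 h, 1.29 and 0.257 at 24 h and 3.44, 0 and 0 at 96 h. It fell at 18 h (log2 fold change -6.37 ± 1.47 SE, adjusted p = 0.00841), 24 h (log2 fold change -7.15 ± 1.84 SE, adjusted p = 0.0234, lost in 2 of 28 alternatives) and 96 h (log2 fold change -6.67 ± 1.51 SE, adjusted p = 0.00967) against 0 h, and the calls at 18 h and 96 h held in all 28 alternatives. It was also lower at 12 h than at 3 h (log2 fold change -3.40 ± 1.22 SE, adjusted p = 0.0873) and at 96 h than at 12 h (log2 fold change -3.95 ± 1.35 SE, adjusted p = 0.0755), calls lost in 11 of 28 alternatives and 6 of 28 alternatives. With the block it was called at 12 h as well (adjusted p = 0.0831). Stab1, shared with macrophages, was at 160.2 and 138 CPM at 0 h, 273, 80.8 and 148 at 3 h and 34.4, 52.1 and 0 at 6 h. The later levels were 57.7, 3.90 and 0 CPM at 12 h, 26.3, 0 and 21.4 at 18 h, 24.9 and 7.33 at 24 h and 60.5, 6.54 and 0 at 96 h. Stab1 was not called in any comparison, and its gene overlaps Nt5dc2 on the other strand, so that reads may be shared where strand was not used. Fcgr2b, the inhibitory Fc receptor that clears immune complexes, was at 227 and 99.9 CPM at 0 h, 257, 133 and 81.7 at 3 h and 93.4, 23.5 and 61.4 at 6 h. From 12 h on it was at 38.5, 13.6 and 0 CPM at 12 h, 86.0, 37.2 and 17.5 at 18 h, 69.3 and 41.1 at 24 h and 35.0, 3.46 and 0 at 96 h. It was called only with the block, lower at 12 h (adjusted p = 0.0365) and 96 h (adjusted p = 0.0302) and at 12 h against 3 h (adjusted p = 0.0637).

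Gpr182, an atypical chemokine receptor, was at 94.5 and 71.8 CPM at 0 h, 85.3, 39.1 and 11.8 at 3 h and 24.0, 8.95 and 0 at 6 h. After 6 h it was at 8.11, 0 and 0 CPM at 12 h, 0 in all 3 samples at 18 h, 1.07 and 0 at 24 h and 16.6, 0 and 4.38 at 96 h. At 18 h it was at least 114-fold lower than at 0 h (adjusted p = 0.0393, lost in 1 of 28 alternatives), and the block called it at 12 h and 24 h too (adjusted p = 0.0473 and adjusted p = 0.0803). Oit3 was at 62.2 and 62.3 CPM at 0 h, 113, 64.7 and 37.7 at 3 h and 49.5, 8.35 and 0 at 6 h. It stood at 5.56, 0 and 0 CPM at 12 h, 0 in all 3 samples at 18 h, 6.65 and 0 at 24 h and 14.6, 0 and 0 at 96 h. It was at least 85.1-fold lower at 18 h than at 0 h (adjusted p = 0.0696, lost in 6 of 28 alternatives). With the block Oit3 was called lower at 12, 24 and 96 h (adjusted p = 0.0131, adjusted p = 0.0555 and adjusted p = 0.0294) and at 12 h against 3 h (adjusted p = 0.0202). Gpr182 overlaps Zbtb39 on the other strand, which had 821 counts over all samples. From 12 h on, isolation 1 held the only Oit3 counts, and of the Gpr182 counts all but those of isolation 3 at 96 h. Lyve1, a hyaluronan receptor of lymphatic and sinusoidal endothelium, differed from the rest of the group: it was at 0 in both samples at 0 h, 9.95, 4.31 and 9.37 CPM at 3 h and 8.90, 2.98 and 0 at 6 h. Later values were 33.8, 3.90 and 9.87 CPM at 12 h, 23.9, 0 and 3.35 at 18 h, 7.29 and 0 at 24 h and 0 in all 3 samples at 96 h. Its 12 h mean was at least 10.5-fold higher than at 0 h, a change that did not pass the test (adjusted p = 0.143). At 96 h it was at least 18.4-fold lower than at 12 h (adjusted p = 0.0745, lost in 7 of 28 alternatives). Without the 12 h sample of isolation 1 these bounds were 4.57-fold and 8.01-fold.

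**Figure D3:**
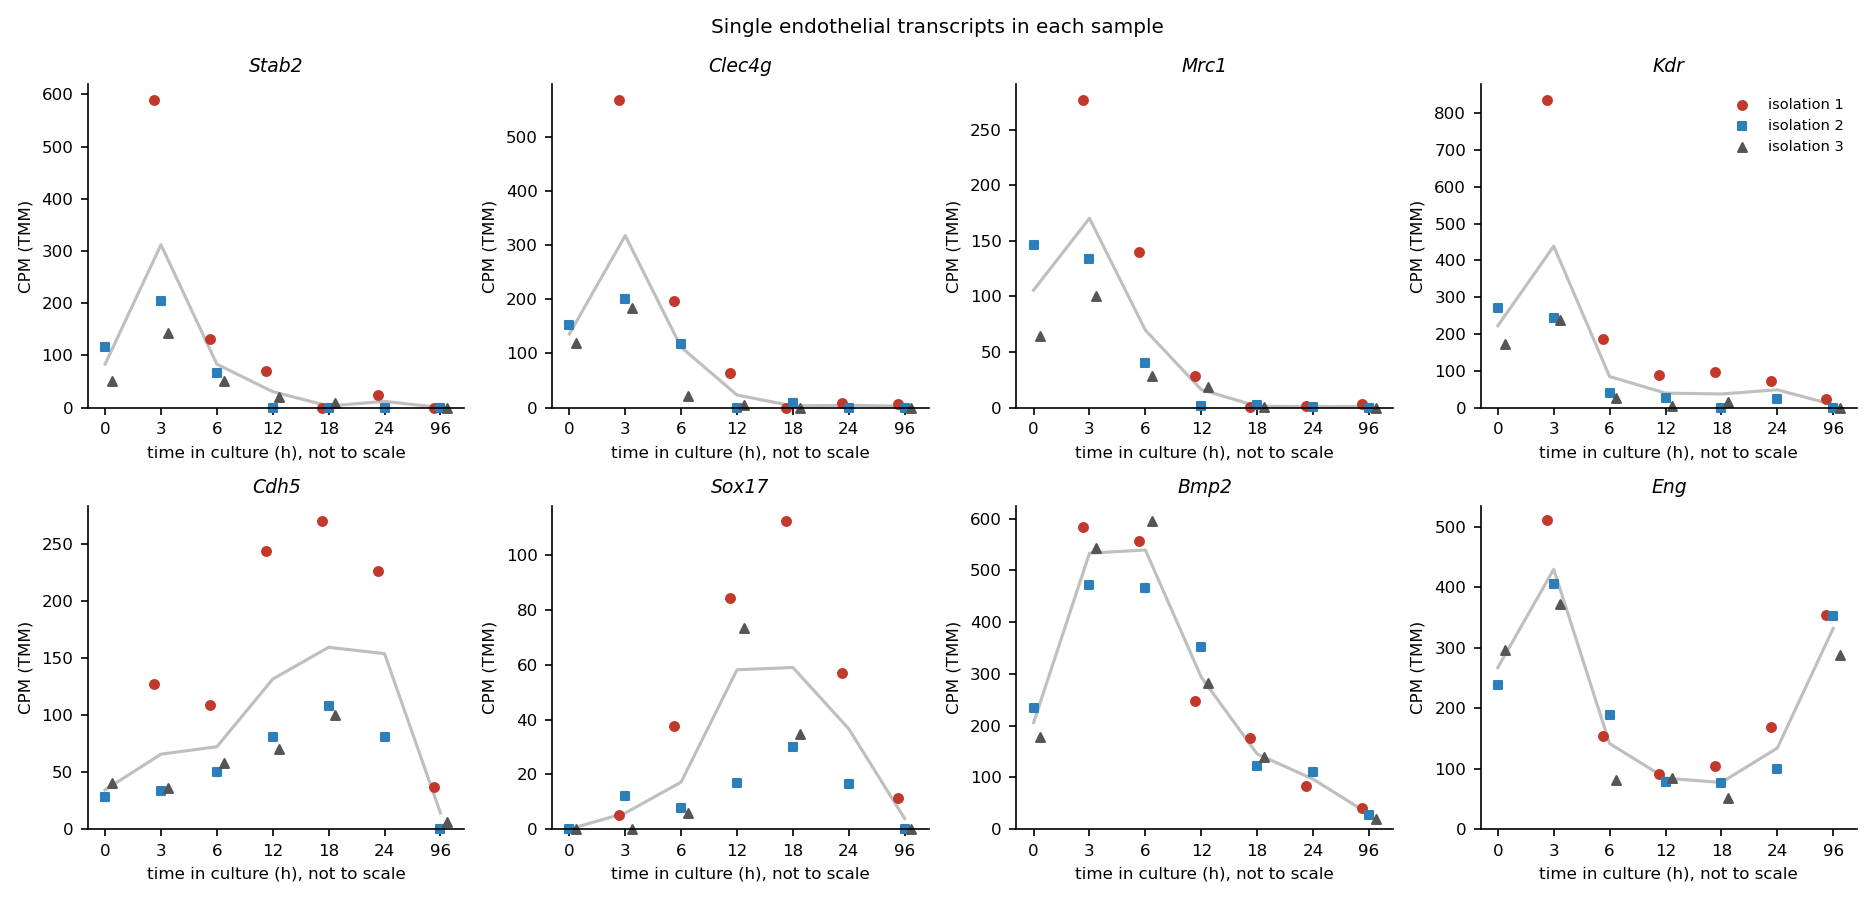
CPM (TMM-scaled) of 8 transcripts in each sample (points, shaped and coloured by isolation) with the mean per time (grey line) and evenly spaced times. Stab2, Clec4g, Mrc1 and Kdr are highest at 3 h in isolation 1 and low from 12 h on, Cdh5 and Sox17 are highest at 12 to 24 h, Bmp2 is highest at 3 and 6 h, and Eng is lowest from 12 to 18 h and high again at 96 h with the isolations close together.

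Members of the junction group took different courses. Cdh5 was higher at 12 h than at 3 h in each isolation, while Adgrl4 and Ramp2 were lower in each. Cdh5, which encodes VE-cadherin, the adhesion molecule of endothelial junctions, was at 28.1 and 40.7 CPM at 0 h, 127, 33.6 and 36.4 at 3 h and 109, 49.7 and 58.1 at 6 h. It then stood at 244, 81.1 and 69.8 CPM at 12 h, 269.8, 108 and 100.4 at 18 h, 227 and 81.0 at 24 h and 36.7, 0 and 5.90 at 96 h. All 12 h samples lay above both 0 h samples, but that difference did not pass the test (log2 fold change 1.94 ± 1.23 SE, adjusted p = 0.327). The fall from 12 h to 96 h did pass (log2 fold change -3.23 ± 1.11 SE, adjusted p = 0.0788, lost in 5 of 28 alternatives). With the block Cdh5 was also lower at 96 h than at 0 h (log2 fold change -2.67 ± 0.88 SE, adjusted p = 0.0855). Cldn5, a claudin of endothelial tight junctions, was at 27.3 and 21.6 CPM at 0 h, 23.6, 17.5 and 10.9 at 3 h and 11.6, 2.58 and 10.6 at 6 h. The later levels were 49.3, 13.6 and 8.67 CPM at 12 h, 80.7, 2.63 and 4.66 at 18 h, 33.7 and 8.999 at 24 h and 2.29, 0 and 0.337 at 96 h. The high values at 12 to 24 h were those of isolation 1. It was lower at 96 h than at 0 h (log2 fold change -4.82 ± 1.59 SE, adjusted p = 0.0761, lost in 6 of 28 alternatives) and than at 12 h (log2 fold change -4.79 ± 1.53 SE, adjusted p = 0.0576, lost in 5 of 28 alternatives).

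Robo4, a receptor that steadies vessel walls, was at 28.6 and 7.53 CPM at 0 h, 67.7, 16.5 and 18.3 at 3 h and 32.9, 11.9 and 14.6 at 6 h. From 12 h on it was at 67.9, 13.9 and 10.3 CPM at 12 h, 18.8, 22.3 and 12.48 at 18 h, 30.5 and 21.9 at 24 h and 9.46, 0 and 0 at 96 h. Only the block called a change, the lower level at 96 h against 12 h (adjusted p = 0.0727). Pecam1, the general endothelial adhesion molecule, was at 28.1 and 20.6 CPM at 0 h, 120.1, 40.5 and 30.9 at 3 h and 57.3, 24.7 and 24.1 at 6 h. After 6 h it was at 53.5, 14.8 and 16.9 CPM at 12 h, 56.5, 33.9 and 13.97 at 18 h, 59.0 and 14.1 at 24 h and 37.0, 6.93 and 2.86 at 96 h. It had a count in all 19 samples and was called only with the block, lower at 96 h than at 0 h (log2 fold change -1.90 ± 0.57 SE, adjusted p = 0.0561). Mmrn2, a matrix protein of endothelium, was at 79.2 and 26.1 CPM at 0 h, 139, 67.6 and 27.9 at 3 h and 47.8, 21.1 and 17.2 at 6 h. It stood at 51.7, 26.1 and 38.6 CPM at 12 h, 28.8, 11.9 and 0 at 18 h, 63.7 and 12.9 at 24 h and 12.6, 0 and 0 at 96 h. The block called a lower level at 96 h against 0 h (adjusted p = 0.0521) and 12 h (adjusted p = 0.062). Emcn, a sialomucin of capillaries and veins, was at 0 in both samples at 0 h, 40.5, 0 and 18.3 CPM at 3 h and 17.2, 10.3 and 0 at 6 h. Later values were 19.5, 0 and 0 CPM at 12 h, 31.9, 8.77 and 5.21 at 18 h, 27.7 and 0 at 24 h and 10.9, 0 and 0 at 96 h. Adgrl4, an adhesion receptor, was at 58.9 and 0 CPM at 0 h, 143, 81.7 and 45.3 at 3 h and 43.3, 21.5 and 0 at 6 h. The later levels were 18.8, 11.4 and 13.9 CPM at 12 h, 17.5, 23.2 and 11.2 at 18 h, 56.9 and 0 at 24 h and 6.31, 0 and 0 at 96 h. Neither Emcn nor Adgrl4 was called with or without the block, and both were counted in isolation 1 alone at 96 h.

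Esam and Ramp2 were the junction and surface members still counted in all 3 isolations at 96 h beside Pecam1. Esam, an endothelial adhesion molecule of the immunoglobulin family, was at 174 and 137 CPM at 0 h, 201, 203 and 233 at 3 h and 152, 78.3 and 0 at 6 h. From 12 h on it was at 178, 58.2 and 68.5 CPM at 12 h, 89.0, 0 and 54.0 at 18 h, 124 and 66.5 at 24 h and 73.4, 51.2 and 50.5 at 96 h. Its 96 h samples lay close together and below both 0 h samples, but the change was not called (log2 fold change -1.42 ± 1.45 SE, adjusted p = 0.641). Ramp2, which makes Calcrl a receptor for adrenomedullin, was at 7.52 and 76.3 CPM at 0 h, 152, 97.1 and 103 at 3 h and 27.3, 0 and 14.6 at 6 h. After 6 h it was at 46.3, 0 and 12.3 CPM at 12 h, 27.1, 14.04 and 15.8 at 18 h, 36.3 and 28.5 at 24 h and 50.5, 25.02 and 64.0 at 96 h, and there was no call. The gene overlaps Vps25 on the same strand, and isolation 3 had the highest Ramp2 level at 96 h.

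Among the 3 transcription factors, Sox17 was called higher in culture, Erg was not called and Sox18 was not tested. Sox17, a factor of arterial and early endothelium, was at 0 in both samples at 0 h, 5.31, 12.2 and 0 CPM at 3 h and 37.7, 7.75 and 6.03 at 6 h. From then on it was at 84.3, 16.96 and 73.3 CPM at 12 h, 112, 30.01 and 34.6 at 18 h, 56.9 and 16.3 at 24 h and 11.5, 0 and 0 at 96 h. It rose at 12 h (at least 38.6-fold higher, adjusted p = 0.0477), 18 h (at least 39.2-fold higher, adjusted p = 0.0511) and 24 h (at least 24.3-fold higher, adjusted p = 0.097) against 0 h, with a floor of 3 counts per library. Without the isolation 1 sample of the time the bounds were 21.5-fold at 18 h and 10.8-fold at 24 h, and without that of isolation 2 it was 37.7-fold at 24 h. The calls were lost in 2 of 28 alternatives, 3 of 28 alternatives and 20 of 28 alternatives. With the block the 24 h call was lost (adjusted p = 0.146). All 12 h samples lay above all 3 h samples and all 96 h samples below all 12 h samples, the latter called only with the block (adjusted p = 0.0889). Erg, an ETS factor that keeps endothelial genes active, was at 26.1 and 4.52 CPM at 0 h, 26.2, 7.67 and 0 at 3 h and 0, 10.3 and 0 at 6 h. It stood at 0 in all 3 samples at 12 h, 12.9, 0 and 20.3 CPM at 18 h, 20.6 and 4.37 at 24 h and 2.87, 0 and 0 at 96 h. It was not called and had at most 109 counts in a sample. Sox18 had a count in only 1 sample, at 0 h in isolation 2, with 26 counts.

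Bmp2, which sinusoidal endothelium makes as a signal for iron control in hepatocytes, had the smallest standard errors of all members in 8 of 8 comparisons. It was at 233 and 178 CPM at 0 h, 584, 472 and 544 at 3 h and 556, 466 and 596 at 6 h. Afterwards it was at 248, 352 and 282 CPM at 12 h, 175, 121 and 139 at 18 h, 82.6 and 111 at 24 h and 41.0, 26.6 and 19.7 at 96 h. It rose at 3 h (log2 fold change 1.37 ± 0.29 SE, adjusted p = 0.00924) and 6 h (log2 fold change 1.39 ± 0.29 SE, adjusted p = 0.00463). It fell below the 0 h level at 24 h (log2 fold change -1.09 ± 0.30 SE, adjusted p = 0.0359) and 96 h (log2 fold change -2.83 ± 0.28 SE, adjusted p = 5.61e-06) and from 12 h to 96 h (log2 fold change -3.34 ± 0.27 SE, adjusted p = 8.05e-07). The calls at 6 h, at 96 h and from 12 h to 96 h held in all 28 alternatives, and the 3 h call was lost in 1 of 28 alternatives, without the 0 h sample of isolation 3. The 24 h call was lost in 4 of 28 alternatives. Isolation 1 was the highest at 3 of 6 times, so that Bmp2 did not follow the difference between isolations that most members showed.

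Eng, endoglin, the co-receptor for Gdf2 and Bmp10, is known from endothelium and also from activated HSCs. It was at 239 and 296 CPM at 0 h, 512, 406 and 373 at 3 h and 155, 189 and 81.1 at 6 h. It then lay at 90.6, 78.5 and 83.8 CPM at 12 h, 105, 75.6 and 50.8 at 18 h, 169 and 99.6 at 24 h and 355, 354 and 288 at 96 h. It fell at 12 h (log2 fold change -1.66 ± 0.34 SE, adjusted p = 0.0027) and 18 h (log2 fold change -1.79 ± 0.34 SE, adjusted p = 0.00168) against 0 h and at 12 h against 3 h (log2 fold change -2.35 ± 0.32 SE, adjusted p = 0.00014). It rose from 12 h to 96 h (log2 fold change 1.98 ± 0.31 SE, adjusted p = 0.000485), and the 4 calls held in all 28 alternatives. With the block it was also called lower at 6 h (adjusted p = 0.0288) and 24 h (adjusted p = 0.0287). Its 12 h samples lay below all samples at 0, 3 and 96 h and overlapped with those at 6 h. The 3 isolations lay within 288 to 355 CPM at 96 h, while the summed level of all members still differed between them. Eng overlaps Fpgs on the other strand, which had 7863 counts over all samples, and whether strand was used in counting is not given in the sources used here.

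Egfl7, a secreted vascular protein, was at 104 and 68.8 CPM at 0 h, 158, 60.2 and 73.6 at 3 h and 129.6, 38.4 and 42.9 at 6 h. Later values were 213, 58.3 and 37.0 CPM at 12 h, 71.2, 33.2 and 20.5 at 18 h, 149 and 37.2 at 24 h and 58.5, 18.9 and 27.96 at 96 h. It was called only with the block, lower at 6 h (adjusted p = 0.0952), 18 h (adjusted p = 0.00502) and 96 h (adjusted p = 0.00324) against 0 h and at 96 h against 12 h (adjusted p = 0.0199). Isolation 1 was the highest at all 6 times. F8, clotting factor VIII, for which this endothelium is the main source, was at 55.9 and 46.2 CPM at 0 h, 181, 69.8 and 35.9 at 3 h and 136, 42.9 and 31.6 at 6 h. The later levels were 50.5, 23.4 and 30.8 CPM at 12 h, 44.1, 3.68 and 6.89 at 18 h, 14.6 and 6.43 at 24 h and 10.9, 0 and 0 at 96 h. The block called a lower level at 18 h (adjusted p = 0.0925) and 96 h (adjusted p = 0.0068) and at 96 h against 12 h (adjusted p = 0.0142). Egfl7 overlaps Agpat2 on the other strand, which had 2272 counts over all samples.

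Dll4 and Wnt2 had no count in any sample from 12 h on. Dll4, a Notch ligand, was at 29.1 and 23.6 CPM at 0 h, 30.2, 9.59 and 9.58 at 3 h and 0, 5.57 and 0 at 6 h and at 0 after that. It was at least 37.9-fold lower at 12 h (adjusted p = 0.0492), at least 36.0-fold lower at 18 h (adjusted p = 0.0561) and at least 30.6-fold lower at 96 h (adjusted p = 0.073) than at 0 h. At 12 h it was at least 23.7-fold lower than at 3 h (adjusted p = 0.0626), or at least 13.8-fold without the 3 h sample of isolation 1. At 24 h, also without a count, it was not called (adjusted p = 0.143, 2 samples). Wnt2, a signal to hepatocytes around the central vein, was at 14.5 and 23.6 CPM at 0 h, 15.9, 6.47 and 0 at 3 h and 19.3, 11.3 and 0 at 6 h and at 0 after that. It was at least 27.4-fold lower at 12 h (adjusted p = 0.083) and at least 26.1-fold lower at 18 h (adjusted p = 0.0934) than at 0 h. With the block Wnt2 was also called lower at 96 h (adjusted p = 0.0874). The calls of Wnt2 were each lost in 12 of 28 alternatives, and those of Dll4 against 0 h in 5 of 28 alternatives, 8 of 28 alternatives and 11 of 28 alternatives. With the block Dll4 was no longer called at 18 h (adjusted p = 0.102), at 96 h (adjusted p = 0.129) or at 12 h against 3 h (adjusted p = 0.102). No Dll4 or Wnt2 sample held more than 116 counts. Nos3, endothelial nitric oxide synthase, had 72 counts in isolation 1 at 3 h and none in any other sample.

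Isolation 1 held more of these transcripts than the others throughout. Among members with a count at a time, the highest sample was that of isolation 1 for 30 of 32 (3 h), 24 of 30 (6 h) and 25 of 27 (12 h). It was so for 19 of 26 (18 h), 25 of 27 (24 h) and 24 of 25 (96 h), in all 147 of 167. These are 93.8, 80.0, 92.6, 73.1, 92.6 and 96.0% of the members. Over all genes tested with a count, the same shares were 34, 29, 37.6, 34.3, 51.6 and 33.7%, with 2 samples at 24 h and 3 at the other times. The summed level in isolation 1 was 1.93 to 2.64 times the mean of the other isolations at the same time, most at 18 h. For the HSC markers this ratio lay between 0.857 and 1.10, for the macrophage markers between 0.788 and 2.68 and for the hepatocyte markers between 0.471 and 2.04. The highest macrophage ratio, at 24 h, was 39.9 against 14.9 CPM, from 3 and 2 genes with a count. For the lymphocyte markers the ratio could be formed at 3, 6 and 12 h and was 1.45 to 2.39. At 6 and 12 h Ccl5 was the only lymphocyte marker with a count, so this ratio rests on few counts. For a second list of 27 endothelial genes it was 1.21 to 1.74. The libraries of isolation 1 had the lowest totals at each time in culture, 3353915 to 4286832 counts, so that its higher member levels came with the lowest depth. Isolation 3 shares the date of isolation 1 and did not share its level. The cause of the difference between isolations was not tested.

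**Figure D4:**
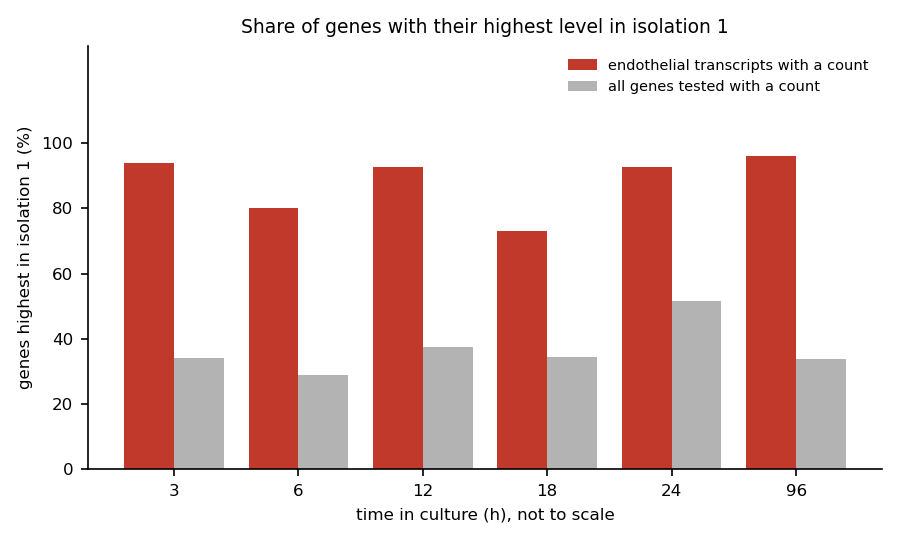
Percent of genes whose highest level at a time was in isolation 1, for the endothelial transcripts with a count at that time (red bars) and for all genes tested with a count (grey bars), with evenly spaced times. The red bars lie between 73.1 and 96.0% and the grey bars between 29 and 51.6%, the last at 24 h with 2 isolations.

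Without isolation 1, the members called lower were 12 at 96 h (7 with it), 6 at 18 h (7), 3 at 12 h (3), 2 at 12 h against 3 h (4), 1 at 24 h (2) and 8 at 96 h against 12 h (7), a choice made after its values were seen. No share of all genes is given for this fit, so a change particular to the members cannot be told from a general change in calls. Flt1 was highest in isolation 1 at 2 of 6 times, Bmp2 at 3 of 6, Erg at 3 of 5 times with a count and Dll4 at 1 of 2. The other 27 tested members had their highest sample in isolation 1 at all but 1 of the times with a count or at all of them.

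The ligands of these receptors were counted in the same samples, 20 genes with their partner receptors, of which 19 were tested. At 12 h against 0 h, 5 were called higher (8.6% of all genes) and 3 lower (9.1%), and at 96 h 2 higher (5.83%) and 4 lower (5.03%). The block called 6 higher at 12 h (8.36% of all genes) and 5 lower at 96 h (4.53%). Vegfa, the ligand of Kdr and Flt1, was at 24.8 and 25.1 CPM at 0 h, 47.1, 70.5 and 51.6 at 3 h and 83.1, 123 and 129 at 6 h. From 12 h on it was at 96.1, 218 and 185 CPM at 12 h, 36.3, 118 and 78.6 at 18 h, 14.6 and 40.2 at 24 h and 46.5, 33.7 and 35.4 at 96 h. It was higher at 12 h than at 0 h (log2 fold change 2.73 ± 0.55 SE, adjusted p = 0.00267) and lower again at 96 h than at 12 h (log2 fold change -2.11 ± 0.45 SE, adjusted p = 0.00554). At 12 h Vegfa was lowest in isolation 1, where Kdr was highest. Nrp1, a co-receptor for VEGF, fell at 12 h (log2 fold change -2.28 ± 0.42 SE, adjusted p = 0.00135) from 513 and 346 CPM at 0 h to 129, 59.2 and 77.4 CPM at 12 h. Angpt2, which can oppose Tek signalling, was at 6.27 and 1.51 CPM at 0 h, 3.98, 5.27 and 0.436 at 3 h and 186, 49.1 and 40.6 at 6 h. After 6 h it was at 166, 78.2 and 72.9 CPM at 12 h, 140.4, 59.7 and 38.5 at 18 h, 144 and 58.5 at 24 h and 31.5, 35.6 and 29.5 at 96 h. It rose at 6 h (log2 fold change 4.48 ± 1.04 SE, adjusted p = 0.0106) and was called higher at all later times. Isolation 1 had the highest Angpt2 level from 6 to 24 h, as it had for most members.

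Ligands of endoglin moved apart. Bmp10 was at 324 and 305 CPM at 0 h, 735, 973 and 678 at 3 h and 1780.4, 3460.3 and 1961 at 6 h. It stood at 1819.5, 2597 and 2246 CPM at 12 h, 552, 1077 and 1120.2 at 18 h, 398 and 544 at 24 h and 509, 338 and 422 at 96 h. It was higher at 6 h (log2 fold change 2.93 ± 0.36 SE, adjusted p = 6.37e-05) and 12 h (log2 fold change 2.82 ± 0.36 SE, adjusted p = 4.81e-05). Gdf2 was at 440.1 and 514 CPM at 0 h, 211, 152 and 233 at 3 h and 23.1, 27.8 and 52.4 at 6 h. Later values were 5.56, 15.9 and 3.87 CPM at 12 h, 0, 0 and 8.75 at 18 h, 4.29 and 17.9 at 24 h and 35.6, 39.3 and 41.1 at 96 h. A lower level was called at 12 h than at 0 h (log2 fold change -5.81 ± 1.17 SE, adjusted p = 0.00273). Adm, adrenomedullin, rose at 12 h (log2 fold change 4.12 ± 1.09 SE, adjusted p = 0.0175) from 0 and 54.7 CPM at 0 h to 667, 276 and 434 CPM at 12 h and was at 999.99, 543 and 612 CPM at 96 h. Its receptor Calcrl fell at 12 h (log2 fold change -2.65 ± 0.32 SE, adjusted p = 2.75e-05) from 790.1 and 727 CPM at 0 h to 106, 134 and 121 CPM at 12 h. Jag1, a Notch ligand, was lower at 96 h (log2 fold change -2.95 ± 0.35 SE, adjusted p = 3.47e-05), and Rspo3, which strengthens Wnt signals, was lower at 24 h (log2 fold change -1.33 ± 0.27 SE, adjusted p = 0.00539). Bmp6, from 0 counts at 0 h, was at 19.7, 19.8 and 31.5 CPM at 12 h and was called higher at 3, 6, 12, 18 and 24 h. Nrp2 was lower at 96 h than at 12 h (log2 fold change -2.94 ± 0.73 SE, adjusted p = 0.0148). Sender cells of these ligands cannot be told from bulk counts.

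**Figure D5:**
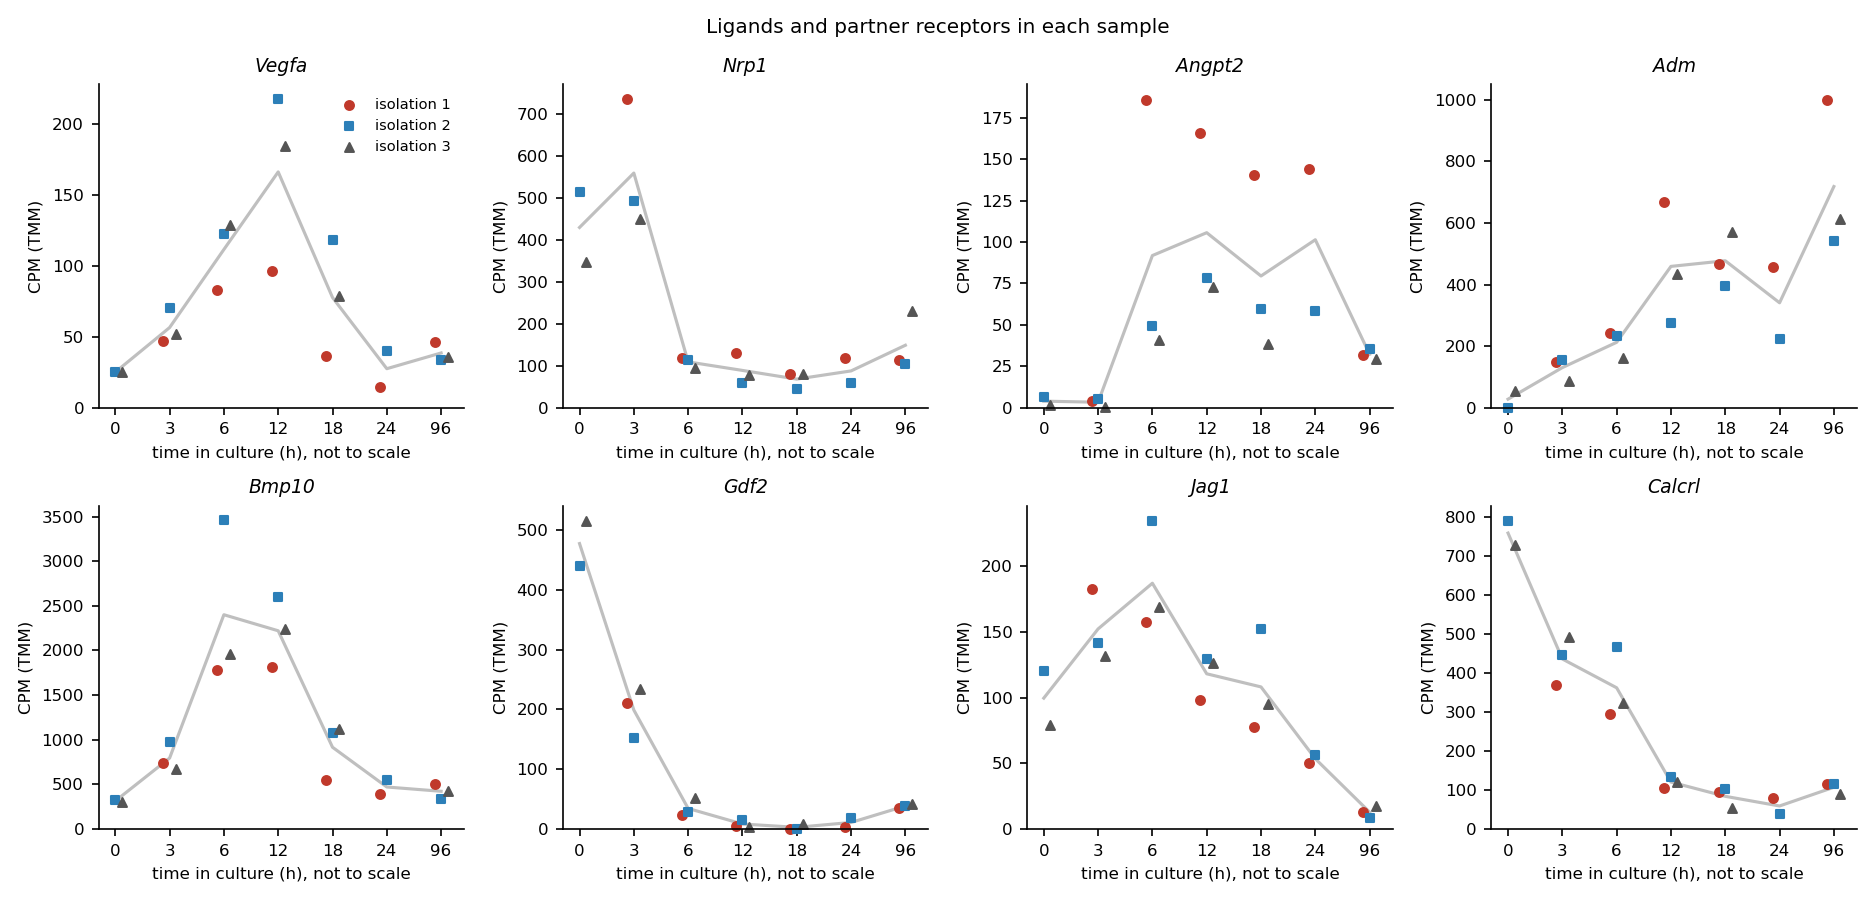
CPM (TMM-scaled) of 8 ligands and partner receptors of the endothelial transcripts in each sample (points, shaped and coloured by isolation), with the mean per time (grey line) and evenly spaced times. Vegfa and Bmp10 are highest at 6 to 12 h, Angpt2 is near 0 until 3 h and highest in isolation 1 from 6 to 24 h, Adm is highest at 96 h, and Gdf2 and Calcrl are highest at 0 h.

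A second list of 27 endothelial genes, 26 of them tested, was set beside the members. Of these, 1 was called higher (8.6% of all genes) and 6 lower (9.1%) at 12 h against 0 h, where the block called 7 lower (8.36%). At 96 h against 0 h, 0 were higher (5.83%) and 3 lower (5.03%). At an unadjusted p below 0.05, 1 was higher and 10 were lower by edgeR. DESeq2 called 1 higher and 7 lower, and the block called 0 higher and 7 lower (4.53% of all genes). At 96 h against 12 h, 5 were higher (6.96%) and 1 lower (6.57%), where the block called 2 lower (6.22%). Dnase1l3 and Aqp1 took a course like that of the scavenger receptors, with isolation 1 highest at 3 h. Dnase1l3, a secreted nuclease, was at 184 and 139 CPM at 0 h, 1319, 584 and 259.6 at 3 h and 344, 167 and 83.7 at 6 h. Its later levels were 85.2, 15.8 and 30.3 CPM at 12 h and 1.72, 0 and 0.674 CPM at 96 h. It was lower at 96 h than at 0 h (log2 fold change -7.76 ± 1.60 SE, adjusted p = 0.00461). Aqp1, a water channel, was at 193 and 206 CPM at 0 h and 2025, 571 and 387 at 3 h, and then at 65.3, 0 and 23.2 CPM at 12 h. The level was lower at 12 h than at 3 h (log2 fold change -5.08 ± 1.71 SE, adjusted p = 0.0686). S1pr1, the receptor for sphingosine 1-phosphate, took a course like that of Cdh5 and Sox17. It was at 20.1 and 5.02 CPM at 0 h and 22.9, 13.2 and 13.1 at 3 h, and then at 115, 46.3 and 47.9 CPM at 12 h and 177, 36.8 and 71.3 at 18 h. It was higher at 12 h (log2 fold change 2.45 ± 0.78 SE, adjusted p = 0.0469) and 18 h (log2 fold change 2.90 ± 0.80 SE, adjusted p = 0.0242) than at 0 h.

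The 5 genes of the second list called higher at 96 h than at 12 h, as Eng was, were Ehd3, Tmem204, Rhoj, Clec14a and Gja4. Ecscr of this list was not among these calls, though it was at 12.3, 0 and 0 CPM at 12 h and 103, 142 and 157 CPM at 96 h. Plvap, an endothelial diaphragm protein, was at 1511 and 1117 CPM at 0 h and 1417, 1706 and 1839 at 3 h. It then lay at 192, 223 and 198 CPM at 12 h, 48.9 and 30.2 at 24 h and 337, 319 and 319 at 96 h. It was lower at 12 h (log2 fold change -2.69 ± 0.23 SE, adjusted p = 1.10e-06) and at 96 h (log2 fold change -2.02 ± 0.23 SE, adjusted p = 2.51e-05) than at 0 h. Its difference between 96 h and 12 h was under 2-fold and not a call (log2 fold change 0.67 ± 0.21 SE, adjusted p = 0.0498). Ehd3 was at 2945 and 2589 CPM at 0 h and 1900.2, 1188 and 976 at 3 h, 354, 185 and 211 CPM at 12 h and 852, 547 and 713 CPM at 96 h. It was lower at 12 h (log2 fold change -3.47 ± 0.34 SE, adjusted p = 2.86e-06) and higher at 96 h than at 12 h (log2 fold change 1.49 ± 0.30 SE, adjusted p = 0.00315). Tmem204 (log2 fold change 2.35 ± 0.48 SE, adjusted p = 0.00357), Rhoj (log2 fold change 1.61 ± 0.23 SE, adjusted p = 0.000194), Clec14a (log2 fold change 3.74 ± 1.30 SE, adjusted p = 0.0817) and Gja4 (adjusted p = 0.0405, with 0 counts in all samples at 12 h) were likewise higher at 96 h than at 12 h. Arhgef15 and Exoc3l2 were called lower at 12 h against 3 h (adjusted p = 0.0861 and adjusted p = 0.0883). Whether these genes come from endothelial cells or HSCs cannot be told apart here.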

How the data were processed

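RNA of 19 samples was measured from 3′ ends (QuantSeq 3′ FWD, total RNA), so that counts do not scale with transcript length. CPM was compared between genes only to rank the genes of a list and in shares of a sum. According to the methods and the submitters' processing notes, the authors trimmed the reads, mapped them with STAR to mm10 (GRCm38.p6) and used StringTie. The tool that counted reads per gene, its annotation and its use of strand are not given in the sources used here. The deposited values are raw counts per gene and sample, with 2 technical repeats of a sample not separated.

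The counts were scaled by TMM and fitted in edgeR 4.0.16 (R 4.3.3, limma 3.58.1), with genes kept by filterByExpr, time as the only factor and the quasi-likelihood F test in 8 comparisons. All 15138 genes tested entered the Benjamini-Hochberg adjustment, and a call required a change of more than 2-fold with an adjusted p under 0.1. The fit was tested on simulated data. The members and gene lists were chosen with earlier results of these data known, so that no p-value over the list alone is given. Every member was accounted for, with values in each sample for those with a mean of at least 10 CPM at 1 time or called in any comparison. Single genes of other lists were named where called in any comparison or among the 3 most abundant of their list. A group at 0 was set against a floor of 3 counts in a library. Alternatives were other scaling (RLE, library size), DESeq2 1.42.0, no filter, an adjusted p below 0.05, the replicate block, the isolation date, a fit of the 2 groups alone and leaving out each sample. Leaving out isolation 1, and Bmp2, Eng and Ramp2 from the sums, was added after the values were seen.

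The pairing of samples comes from the labels, in which an isolation number goes with 1 isolation date. Deviations from the time means had a mean correlation of 0.0143 over 51 pairs of samples with the same number and -0.00704 over 103 pairs with different numbers. Promoter windows are from RefSeq (GRCm38.p6). Python 3.11.15 (numpy 2.4.6, pandas 2.3.3, matplotlib 3.10.9) was used for summaries and figures.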

Additional observations from a re-analysis of the deposited data

How the results depend on the processing

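Of 1007 alternative values of the 36 member changes called, 825 kept direction and call, 182 kept direction and lost the call and 0 reversed. The 28 alternatives for summed levels and numbers of members counted (library size alone, without Bmp2 as the most abundant member, without Stab1, Mrc1 and Fcgr2b, and thinning to 2073171 counts) moved by less than the spread between replicates. Without Bmp2, Eng and Ramp2, chosen after seeing the data, the mean summed level at 96 h moved from 669 to 261 CPM, and at the other 6 times by less than the spread. The causes of the changes below were not tested.

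DESeq2 called more members: 2 higher at 3, 6, 12 and 18 h and 1 at 96 h, and 1 lower (6 h), 6 (12 h), 7 (24 h) and 11 (96 h), with 8 from 3 h to 12 h and 11 from 12 h to 96 h. The replicate block gave 3 lower (6 h), 9 (12 h), 7 (24 h) and 16 (96 h), with 8 from 3 h to 12 h and 13 from 12 h to 96 h. At 18 h it added Kdr, Clec4g, Egfl7 and F8 to the lower calls and dropped Dll4. It gave 0 higher at 24 h, and beyond the member calls named in the text it changed none. A fit of the 2 groups alone, which estimates the spread from fewer samples, gave 2 higher at 6 h, 2 at 12 h and 3 at 18 h, and 5 lower (12 h), 7 (24 h), 7 from 3 h to 12 h and 4 from 12 h to 96 h. With no filter, and with the isolation date, 2 were higher at 6 h. RLE scaling, the date, the block, the stricter threshold and leaving out isolation 1 each gave 0 higher at 24 h, and RLE gave 1 lower at 6 h. Library size alone gave 1 lower at 24 h and 2 at 12 h against 3 h. An adjusted p below 0.05 gave 0 higher and 3 lower at 18 h, 1 lower at 12 h against 3 h and 2 at 96 h against 12 h. Without isolation 1, 12 were lower at 96 h, 1 at 24 h and 2 at 12 h against 3 h. Apart from the block, the alternatives are given without shares of all genes.

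Leaving out 1 sample at a time gave 0 to 1 higher at 3 h (0 without 0 h isolation 3), 1 to 2 at 6 h (2 without 3 h isolation 3, 6 h or 12 h isolation 2 or any 96 h sample), and 0 to 1 at 12, 18 and 24 h (0 without either 0 h sample, and at 24 h also without any of 13 others, those of 3 h isolation 3 and of 96 h excepted). Lower calls ranged from 0 to 2 at 6 h (2 without 6 h isolation 2), 1 to 4 at 12 h (1 without either 0 h sample or 12 h isolation 2 or 3), 3 to 9 at 18 h (3 without either 0 h sample or 18 h isolation 2, 4 without 18 h isolation 1 or 3), 0 to 3 at 24 h (0 without 24 h isolation 1, 1 without 0 h or 24 h isolation 2), 2 to 13 at 96 h (3 and 4 without 0 h isolation 2 and 3, and 13, 2 and 3 without 96 h isolation 1, 2 and 3), 1 to 4 at 12 h against 3 h (1 without 3 h isolation 1 or 2 or 12 h isolation 3, 2 without either 0 h sample or 12 h isolation 2) and 2 to 10 at 96 h against 12 h (2 without 12 h isolation 1 or 96 h isolation 3, 3 without 96 h isolation 2). A sample left alone in its group is assumed to vary like the other groups. Totals of 2073171 to 7690892 counts set the floor of 3 counts at 0.386 to 1.51 CPM, below which a transcript was not detectable.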
